A study of Mus musculus with 4 samples.

Results

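The sites described here are the called m6A sites that lie close to where genes begin. A site counted as a start site when it had at least 20 reads, lay on the sense strand inside exactly 1 feature of the deposited gene annotation, the feature was at least 2000 bases long, and the site was within 300 bases of its 5' end. The 4 site lists together held 18856 such positions, out of 754291 positions that met the coverage minimum in any list. Of the latter, 640750 lay in exactly 1 feature of that length and are called placed sites here. The start sites fell in 4911 genes, with a median of 3 positions per gene. Start sites made up 3.06% and 2.94% of the placed sites of the wild-type libraries and 3.14% and 3.08% of those of the knockout libraries.

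The study measured m6A in mouse retinal organoids, tissue grown from pluripotent stem cells, on day 4 of differentiation. Wild-type (WT) organoids came from the Rx:GFP line, which carries a green fluorescent reporter of the eye field gene Rax. Mettl3 knockout (KO) organoids came from a derivative of that line which, per the labels' protocols, also harbours an HA-tagged METTL3 that doxycycline can switch on, and the labels list no doxycycline treatment. Both genotypes were grown in the same medium with 0.1 µM AGN, and each was represented by 2 libraries of poly(A) RNA. All 4 libraries carry 1 batch label. The labels do not say whether the 2 libraries of a genotype came from separate cultures or whether the KO line is 1 clone, so differences between them may measure technical spread only.

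Each library was made by GLORI, a chemical method in which unmodified adenosine is deaminated and read as G while m6A resists and is read as A. The level of a site is its share of unconverted reads, from 0 to 1, and the coverage is the number of reads with A or G there. No list holds a level below 0.1. A position missing from a list was therefore converted, or too thinly covered to be called, and the lists do not separate these. The library sizes are not in the lists, and the unlisted positions are not analysed here.

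Most m6A of mRNA is written during transcription by the METTL3 and METTL14 complex, at adenosines in the DRACH context (D is A, G or T; R is A or G; H is A, C or T). These internal marks are known to be dense around stop codons, in 3' UTRs and in long internal exons, and sparse in 5' UTRs and near exon junctions. The 5' end of mRNA has another adenosine modification: where the base next to the cap is 2'-O-methylated adenosine, PCIF1 methylates it further to m6Am. The mark is written without METTL3. Reads that keep A within the first bases of a transcript can come from either modification.

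Sequence could be placed at a small share of the start sites. RefSeq start windows of GRCm38.p6 were matched by symbol for 12215 features, and 3755 of these had a listed 5' end at the RefSeq start, as judged by an offset shared with neighbouring genes. Of 953 start sites in the first 50 bases of their feature, 182 lay in such a window, and 181 of them (99.5%) fell on an adenosine. The submitters' processing notes name mm10, but positions read directly as GRCm38 coordinates fell on an adenosine at only 23.4% of 3160 places. Site positions are therefore printed as the lists give them, without a build, and only the sequences below have GRCm38.p6 coordinates. They are shown because they hold start sites found in at least 2 libraries. Only 20 such recurrent positions had sequence. Among these 20, the sequences include the gene with the most positions and the only position in a DRACH context. Capitals mark the listed adenosines, and distances are counted from 0 at the feature's first base.

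Pcbp2: cccAgaccagcAgAggcAgcAgccggagca
Mta1: gcggcggcggcggcggcggAgcAgcgcggt
Clstn1: cgccgcctccagcgcAgcgctgccgacgag
Larp1: cactcAgcgtcagcccgtccgcgccgctcc
Isg20l2: ccaccttcgagttgtAcctccacggggccc
Ptpra: tgcggcgagtgaggcgctgacagggActcg

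The Pcbp2 run (chr15:102470539-102470568, plus strand) starts at the first base of the gene, which encodes a poly(C)-binding protein of mRNA stability and translation. Its capitals stand at distances 3, 11, 13, 17 and 20. The adenosine at distance 17 was listed in all 4 libraries, at levels of 0.108 and 0.209 in WT and 0.119 and 0.254 in KO, and the one at distance 20 at 0.367 and 0.128 in WT and 0.272 and 0.169 in KO. The genotypes overlapped at both positions, and both are in a GCAGC context. The deepest recurrent position with sequence, at distance 35 beyond the printed run, was at 0.114 in WT replicate 1, 0.107 in KO replicate 1 and 0.152 in KO replicate 2, with 422 to 1101 reads. The Mta1 run (chr12:113098278-113098307, plus strand) belongs to a subunit of the NuRD chromatin complex and marks distances 19 and 22. The latter, again in GCAGC, was at 0.127 in WT replicate 1, 0.210 in KO replicate 1 and 0.121 in KO replicate 2. In Clstn1 (chr4:149586488-149586517, plus strand), which encodes a neuronal cadherin-like protein, distance 35 was listed at 0.313 in WT replicate 1 and 0.241 in KO replicate 1.

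The remaining runs are single positions shared by the libraries of 1 genotype. Larp1 (chr11:58009084-58009113, plus strand) encodes a cap-binding regulator of ribosomal protein mRNAs, and its adenosine at distance 25 was listed only in WT, at 0.473 and 0.261. Isg20l2 (chr3:87930334-87930363, plus strand), an exonuclease of ribosome assembly, was listed at distance 35 only in KO, at 0.105 and 0.132. Ptpra (chr2:130450298-130450327, plus strand), a receptor tyrosine phosphatase, has GGACT at distance 45. This DRACH site was listed only in KO, at 0.109 and 0.127 with 230 and 275 reads.

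At the start sites with sequence, DRACH was not detectably more frequent than at all adenosines of the same windows. Sequence was matched only in the first 50 bases of features. The contexts of start sites further in, which are most of them, were not examined. Of 166 start sites with a complete 5-base context, 14 were in DRACH, 8.43% (Wilson 95% interval 5.09% to 13.7%, counting error only). Among all 32898 adenosines of the matched windows 7.25% were, and in the windows that hold a start site 6.59% of 804. The search covered the sense strand only. Of the 20 positions in at least 2 lists, 1 was in DRACH. By library the share was 6.52% and 9.09% in WT and 4.44% and 11.1% in KO, so the genotypes overlapped. GCAGC, searched after the sequences had been seen, held 11 start sites (6.63%) against 1.85% of all adenosines in the matched windows and 2.74% in the windows with a start site, and 5 of the 20 recurrent positions. Neighbouring positions of 1 gene share their reads, and 3 of these 5 are in Pcbp2.

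The number of start sites was similar in both genotypes. WT libraries listed 4999 and 6183 start sites and KO libraries 5372 and 4808. WT replicate 2 was the highest and KO replicate 2 the lowest, and the other 2 libraries lay between them in mixed order. The means were 5591 ± 837 in WT and 5090 ± 399 in KO (SD, n = 2 each), a ratio of 0.910 (two-sided exact permutation p = 0.667; 2 against 2 cannot go below 0.333). Without WT replicate 2 the ratio was 1.02. Sites were spread over 2569 and 3005 genes in WT and 2787 and 2395 genes in KO. The share of placed sites that were start sites was higher in both KO libraries than in both WT libraries, by 0.115 percentage points (exact permutation p = 0.333, the smallest possible). With a window of 100 bases the difference was 0.000426 percentage points, and without WT replicate 2 it was 0.0571.

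Listed start sites were not most numerous at the 5' end itself. The counts were not set against the adenosines or the read coverage of each bin. The first 51 bases (distances 0 to 50) held 981 of the positions, the next 50 bases 2961 and distances 101 to 150 held 4262, after which the number fell to 3009 at 251 to 300. Each library had its highest count between 101 and 200 bases and 4.51% to 5.47% of its start sites in the first bin. The first 10 bases beyond the listed end, where a cap-adjacent m6Am would lie if the annotated end were exact, held 129 positions, with 31 and 44 sites in WT and 38 and 30 in KO. Of these, 10 were in at least 2 lists. Median levels per bin ran from 0.188 to 0.235 over all bins and libraries, and KO replicate 1 had the lowest median in every bin.

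**Figure D1:**
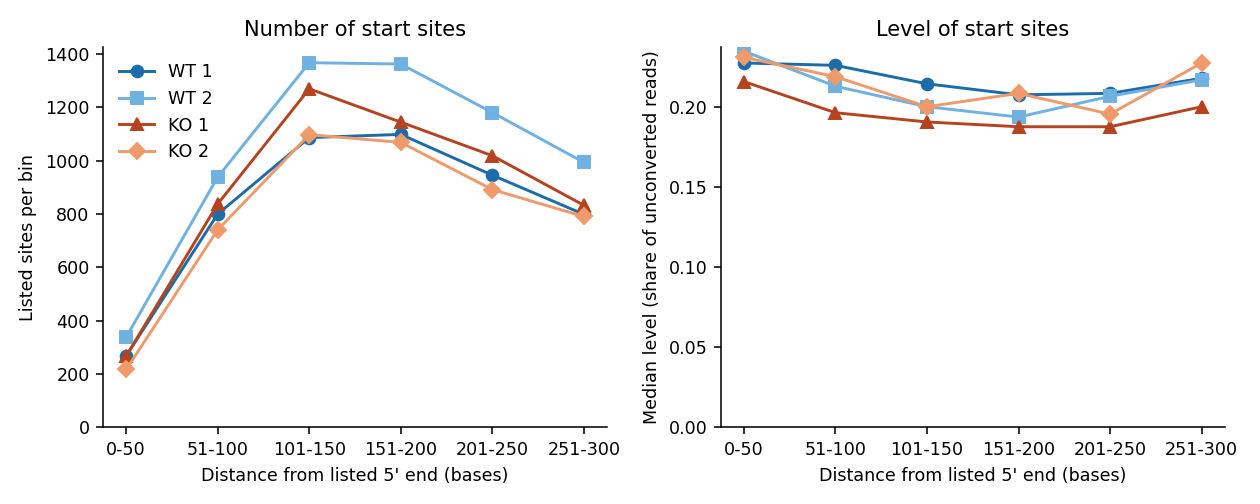
Start sites by distance from the listed 5' end, in bins of 50 bases, with 1 line per library (2 WT, 2 KO): the number of listed sites per bin (left) and their median level, the share of unconverted reads (right). Every library rises from 217 to 338 sites in the first bin to over 1000 between 101 and 200 bases. KO replicate 1 has the lowest median level in every bin, and at 201 to 250 bases both KO medians lie below both WT medians.

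Over all coverages, levels of start sites overlapped between genotypes. The median level was 0.214 and 0.207 in WT and 0.192 and 0.208 in KO, a difference of means of -0.0101, and the upper quartile was 0.313 and 0.311 in WT and 0.287 and 0.314 in KO. Levels of 0.5 or more were found at 453 and 606 start sites in WT and 381 and 482 in KO, a ratio of 0.815 (exact permutation p = 0.667). KO replicate 2 exceeded WT replicate 1, so the genotypes overlapped. As a share of all start sites these were 9.06% and 9.80% in WT and 7.09% and 10.0% in KO. Levels of 0.3 or more were found at 1376 and 1663 start sites in WT and 1257 and 1318 in KO, and here both KO libraries lay below both WT libraries (ratio 0.847, exact permutation p = 0.333, the smallest possible).

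The high levels came mostly from thinly covered sites, in part by construction. No listed site had under 5 unconverted reads, so thinly covered sites could be listed only at higher levels. Among start sites at 0.5 or more, 83.9% and 80.7% in WT and 87.7% and 83.2% in KO had under 50 reads, and their median coverage was 28 to 31 in all 4 libraries, against 51 to 59 for all start sites. Start sites with at least 100 reads were therefore taken apart. There were 1128 and 1733 of them in WT and 1176 and 1085 in KO. A level of 0.5 or more was reached by 12 and 25 of these in WT and by 5 and 2 in KO, a ratio of 0.189. In percent these were 1.06 and 1.44 in WT and 0.425 and 0.184 in KO, and both KO libraries lay below both WT libraries (exact permutation p = 0.333 for count and share, the smallest possible). These counts are small, and leaving out each library in turn gave ratios of 0.108 to 0.292, the lowest without KO replicate 1 and the highest without WT replicate 2. Levels from 0.3 upwards were found at 75 and 110 of these sites in WT and 52 and 47 in KO, a ratio of 0.535, with the same order and the same p. Between 0.1 and 0.2 they overlapped, at 898 and 1398 against 975 and 889. The highest level at this coverage was 0.835 and 0.866 in WT and 0.673 and 0.509 in KO.

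Sites near the 3' ends of the same kind of feature gave the comparison. Among sites within 1000 bases of the 3' end, 7.80% and 7.28% of those with at least 100 reads reached 0.5 in WT and 0.214% and 0.341% in KO. In WT the start sites thus reached that level less often than the end sites in both libraries, while in KO the percentages near starts and near ends overlapped. With all coverages the end sites at 0.5 or more numbered 3650 and 4232 in WT and 1126 and 1497 in KO, a ratio of 0.333, against 0.815 for start sites. For every 100 end sites at such levels there were 12.4 and 14.3 start sites in WT and 33.8 and 32.2 in KO. That measure, which tests the difference between the regions, had both KO libraries above both WT libraries (2.47 times on average, exact permutation p = 0.333, the smallest possible). For all levels it was 14.3 and 15.7 in WT and 16.8 and 13.8 in KO, and overlapped.

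**Figure D2:**
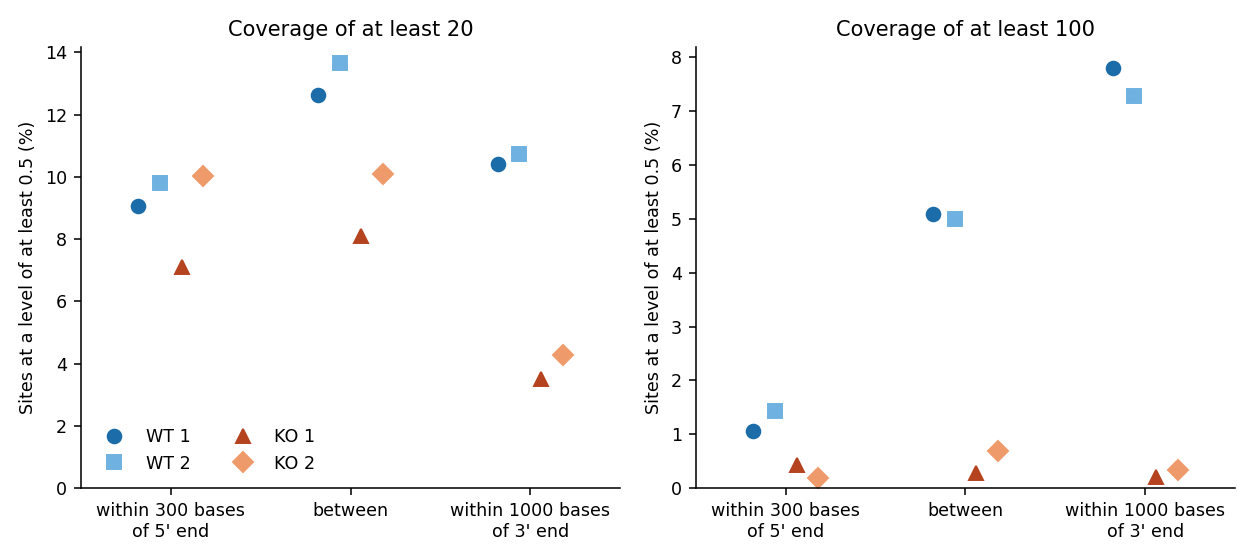
Share of listed sites with a level of 0.5 or more, in percent, by region of the feature and library (circles and squares WT, triangles and diamonds KO), for all sites with 20 or more reads (left) and those with 100 or more (right; the vertical scales differ). Near the 5' end the WT and KO points overlap on the left and separate on the right, at 1.06% and 1.44% against 0.425% and 0.184%, far under the 7.28% to 7.80% of WT sites near 3' ends.

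Other properties of start sites were close in the 4 libraries. The conversion rate that the lists give for a site's gene or chromosome had a median over start sites of 96.2% and 96.3% in WT and 97.1% and 96.5% in KO, higher in both KO libraries. Its part in the level differences was not tested. Another listed site lay within 20 bases of 36.8% and 40.0% of start sites in WT and 38.8% and 41.1% in KO. The lists mark 43.5% to 45.2% of start sites as intronic, as they do at 3' ends (44.5% to 45.2%), and what this mark rests on is not given in the sources used here.

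Few start sites recurred in any pair of libraries. Of the 18856 positions, 88.4% were in 1 list, 1905 were in 2 lists, 221 in 3 and 53 in all 4. The WT libraries shared 643 start sites, 12.9% of those in replicate 1, 10.4% of those in replicate 2 and 6.10% of the union (Wilson 95% interval 5.66% to 6.57%). The KO libraries shared 408, 7.59% and 8.49% of their lists and 4.18% of the union (3.80% to 4.59%). Pairs across genotypes shared 4.31% to 4.66%. The WT pair was thus above the other pairs, and the KO pair was no higher than pairs of unlike genotype. Near 3' ends the WT pair stood further apart, with 10.3% of the union. The KO pair there shared 3.08% and pairs across genotypes 2.84% to 3.16%. Placed sites between the 5' and 3' windows shared less than start sites in every pair. Their shares were 5.13% for the WT pair, 2.52% for the KO pair and 2.44% to 2.55% across genotypes. Low recurrence was thus not particular to gene starts. Each genotype gives 1 pair, so the difference between pairs could not be tested over libraries.

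Recurrence rose with level and coverage in WT. Of 75 start sites of WT replicate 1 with 100 or more reads and a level from 0.3 upwards, 35 were listed again in WT replicate 2 (46.7%, 35.8% to 57.8% by Wilson's method at 95%). Of 110 such sites of WT replicate 2, replicate 1 listed 34 (30.9%, 23.0% to 40.1%). Either KO library listed 6.36% to 14.7% of these WT sites, below both WT values. Of the KO start sites of this kind, 11 of 52 and 4 of 47 were found in the other KO library (21.2% and 8.51%), and 11.5% to 34.0% in a WT library. A site must have been covered in the second library to be found again, and that coverage is not in the lists. Near 3' ends the corresponding WT values were 81.2% and 74.7%.

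**Figure D3:**
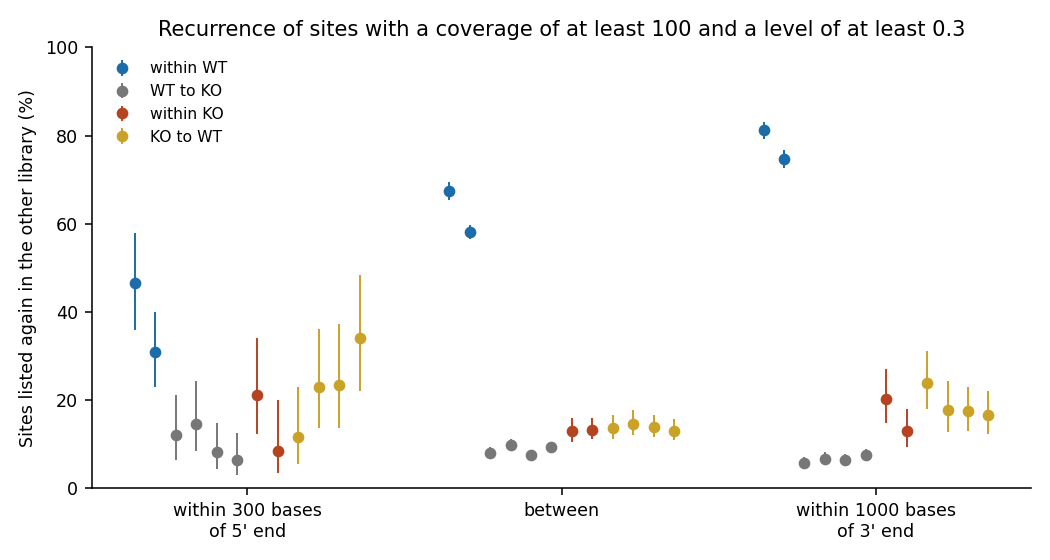
Percentage of sites with 100 or more reads and a level from 0.3 upwards in 1 library that were listed again in a second, by region, for each ordered pair of libraries; bars are Wilson 95% intervals, which cover counting error only. Near 5' ends the WT pair reaches 46.7% and 30.9%, above the 6.36% to 14.7% from WT to KO, while from KO to WT the values run from 11.5% to 34.0%; near 3' ends the WT pair reaches 81.2% and 74.7%.

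Levels of shared start sites correlated more closely in WT than in KO, but differed by about as much. Over the 643 positions shared by the WT libraries Pearson's r of the 2 levels was 0.644 and Spearman's rho 0.555, and over the 408 shared by the KO libraries they were 0.322 and 0.320. These are correlations across sites, which are not independent replicates. The median absolute difference between the 2 levels of a site was 0.0584 in WT and 0.0620 in KO. The SD of the levels over the shared sites was 0.181 and 0.171 in the WT libraries and 0.109 and 0.154 in the KO libraries.

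Most shared start sites of WT were missing from both KO lists, and most shared start sites of KO were missing from both WT lists. Of the 643 in WT, 460 were in neither KO list (71.5%, Wilson 95% interval 67.9% to 74.9%). Of the 408 in KO, 258 were in neither WT list (63.2%, 58.5% to 67.8%). Coverage was then required, through another listed site within 50 bases on the same strand that showed at least 50 reads in both libraries of the other genotype. With that, 85 of 156 WT positions were absent in KO (54.5%, 46.7% to 62.1%) and 67 of 127 KO positions were absent in WT (52.8%, 44.1% to 61.2%), and the intervals overlapped. Among WT-shared positions with at least 50 reads in both and a mean level from 0.3 upwards, 51 of 65 were in neither KO list (78.5%, 67.0% to 86.7%), and 11 of 16 where neighbours showed coverage. The KO counterpart was 11 of 20 (55.0%, 34.2% to 74.2%). With at least 20 reads and any level, the loss near 3' ends was 85.2% and the opposite share 70.6%. For placed sites between the 5' and 3' windows they were 83.1% and 74.2%. At that setting both shares were lowest near gene starts. With at least 50 reads and a mean level from 0.3 upwards they were 87.8% and 36.4% (16 of 44) near 3' ends. Between the windows they were 84.3% and 60.0%. At this setting the loss was again lowest near gene starts, but the opposite share was lowest near 3' ends.

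Start sites with the highest levels in WT and no KO entry were chosen by a rule, as the 10 with the highest mean WT level among 267 candidates with at least 50 reads in both WT libraries. Their WT levels are therefore a description. The deepest were Gspt1 and Akirin2. Gspt1, the translation termination factor eRF3a (chromosome 16, position 11071980, 209 bases from the 5' end), was at 0.607 and 0.642 with 692 and 1257 reads. No listed KO site lay within 50 bases of it, so its KO coverage is not known. Akirin2, a nuclear adaptor of inflammatory transcription and proteasome import (chromosome 4, position 34551072, 135 bases in), was at 0.835 and 0.813 with 485 and 573 reads. KO replicate 2 had a listed site within 50 bases with 1047 reads, while KO replicate 1 had none. Reads thus reached this place in 1 KO library and the Akirin2 position was not called there.

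Neighbours with coverage in both KO libraries were present for 2 of the 10. Hk2, the hexokinase that commits glucose to glycolysis (chromosome 6, position 82751303, 132 bases in), was at 0.597 and 0.571 in WT, and listed neighbours in KO had 82 and 54 reads. Shisa2, an inhibitor of Wnt and FGF receptor maturation (chromosome 14, position 59862836, 79 bases in), was at 0.467 and 0.726, and its KO neighbours had 119 and 77 reads. At these places both KO libraries had reads and neither listed the site. Srsf2, a splicing factor of the SR family (chromosome 11, position 116743844, 76 bases in), was at 0.571 and 0.628, with a neighbour of 143 reads in KO replicate 2 only. Bptf, a subunit of the NURF chromatin remodeller, was at 0.949 and 0.646 with 78 and 212 reads, and KO replicate 1 had a neighbour with 169. The others were Lsr (0.935 and 1), PTPRG (0.966 and 0.866, under a separate identifier in capitals), Wdr24 (0.648 and 0.758) and Rnf122 (0.697 and 0.596). They cover lipoprotein uptake and tricellular junctions, a receptor phosphatase, nutrient sensing by GATOR2 and ubiquitin transfer.

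Further sites of the same kind, those next in mean WT level, were looked up after their values had been seen. They were Fezf1, Sox9, Fzd8, Ttc9c, Ash1l, Cdc25a, Map4k4, Acvr2b, Map2k6 and Crebzf. Among them only Ttc9c, at 0.4 and 0.610 in WT, had neighbours with at least 50 reads in both KO libraries (55 and 50). Fezf1, Sox9 and Acvr2b were picked from these as developmental regulators, and the share of such genes was not counted. Fezf1, a forebrain transcription factor, was at 0.593 and 0.530 in WT with 54 and 83 reads and had no KO neighbour. Sox9, a progenitor transcription factor, was at 0.510 and 0.6, and its KO neighbours had 37 and 87 reads. Acvr2b, an activin receptor, had 704 and 1117 reads at levels of 0.389 and 0.527, and KO replicate 2 had a neighbour with 986 reads. Reads next to the site were thus recorded in at least 1 KO library at Sox9 and Acvr2b. At Fezf1 no listed KO site lay within 50 bases, so its KO coverage is not known.

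**Figure D4:**
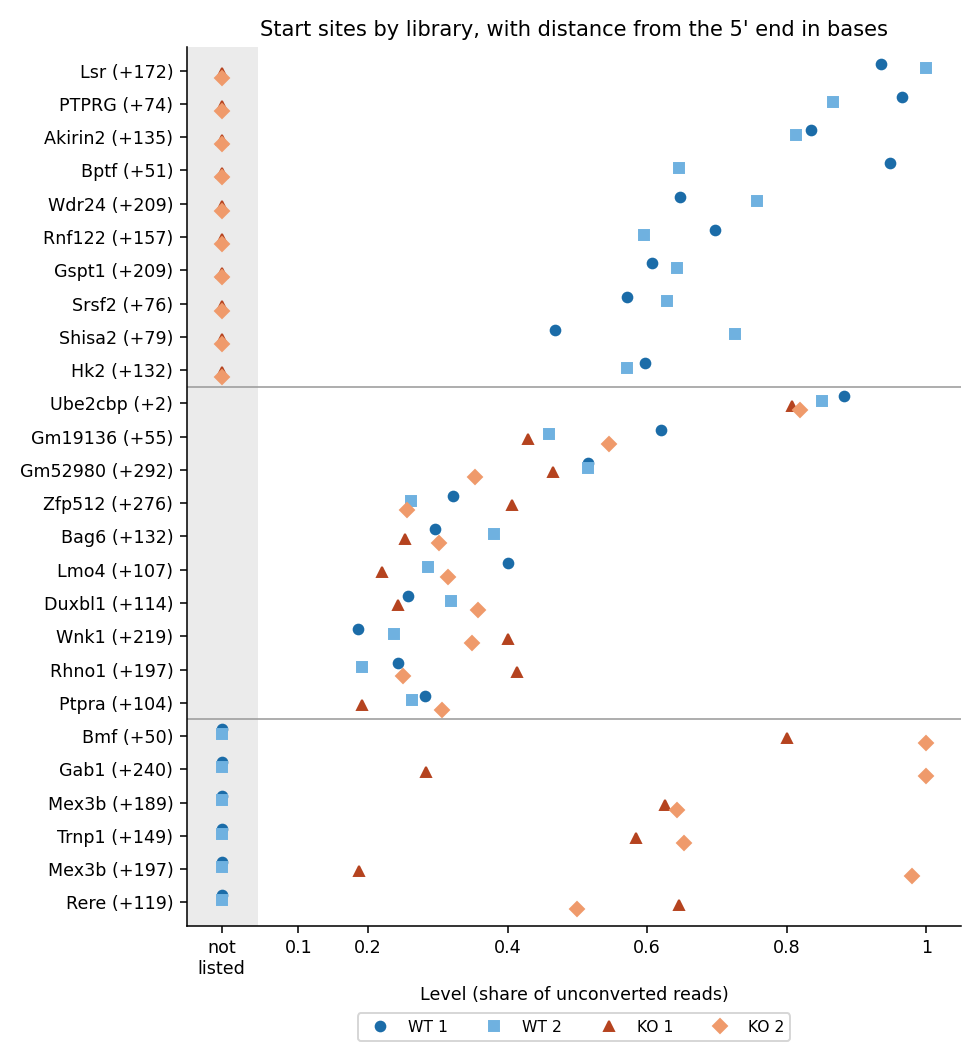
Level of named start sites in each library (circles and squares WT, triangles and diamonds KO), with the distance from the 5' end in bases: the 10 WT-only sites (top), the 10 highest sites listed in all 4 libraries (middle) and the 6 KO-only sites (bottom). The grey strip holds libraries in which a site was not listed, so the top and bottom groups are set by how they were chosen; the middle group shows overlap of WT and KO at most sites, with Ube2cbp highest at 0.808 to 0.882.

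The KO-only sites were chosen with the looser minimum of 20 reads, so their coverage is not comparable. There were 258 candidates, 139 of them with at least 50 reads in both KO libraries. The 6 with the highest mean KO level had 20 to 60 reads, and 2 of them disagreed between the KO libraries, at 0.283 and 1 (Gab1, a signalling adaptor) and at 0.188 and 0.980 (Mex3b, an RNA-binding protein). A second Mex3b site gave 0.625 and 0.643, Bmf, a pro-apoptotic BH3-only protein, 0.8 and 1, Trnp1, a nuclear regulator of neural progenitors, 0.583 and 0.652, and Rere, a transcriptional corepressor, 0.645 and 0.5. A WT neighbour with at least 50 reads was present only at Trnp1, in WT replicate 2 with 69 reads.

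Whether individual sites changed level was tested at the positions listed in all 4 libraries with 20 or more reads in each. Of 1557 such positions, edgeR's quasi-likelihood test called 41 lower in KO (2.63%) and 0 higher (0%) at an adjusted p under 0.05. The 53 start sites among them, in 49 genes, gave 0 calls in either direction. At an unadjusted p under 0.05 there were 2 lower and 3 higher, against 5.78% and 1.86% of all tested positions. limma on log2 odds called 0 start sites and 1.93% of all tested positions lower and 0.0642% higher. The likelihood ratio test called 0 start sites lower and 2 higher, against 3.73% and 0.706% of all tested positions. Fisher's exact test of the summed reads, blind to the spread between libraries, called 2 lower and 4 higher, against 7.51% and 3.28%. The median change in level (KO minus WT) was -0.0130 over the 53 and 0 over all tested. In 10 of the 53 (18.9%) both KO libraries lay below both WT libraries and in 11 (20.8%) above, against 19.9% and 17.0% of all tested positions. Being listed in all 4 libraries requires a KO level of 0.1 or more, so sites lost in KO could not be among them. Mean WT levels of 0.5 or more were found at 3 of the 53 (5.66%) and 291 of the 1557 (18.7%).

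The lowest adjusted p among start sites was at Kdelr1, the receptor that returns proteins to the endoplasmic reticulum (chromosome 7, position 45522403, 207 bases in). Its level was 0.124 and 0.110 in WT with 323 and 490 reads, and 0.214 and 0.278 in KO with 387 and 317 reads. Both KO libraries were higher, by 1.29 on the log2 odds scale, which did not reach the threshold (edgeR adjusted p = 0.0699; range over the alternatives 2.59e-09 to 0.492). Wnk1, a kinase that controls ion transport, was at 0.186 and 0.237 in WT and 0.4 and 0.348 in KO (log2 odds 1.14, edgeR adjusted p = 0.171). Kcmf1, a ubiquitin ligase, went the other way, at 0.234 and 0.221 in WT and 0.136 and 0.137 in KO (log2 odds -0.89, edgeR adjusted p = 0.272). Of these 3, Kdelr1 and Wnk1 passed the threshold in the likelihood ratio test and all 3 in Fisher's test. Wapl, the cohesin release factor, and Ckap4, a protein of endoplasmic reticulum sheets, both had edgeR adjusted p = 0.569.

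**Figure D5:**
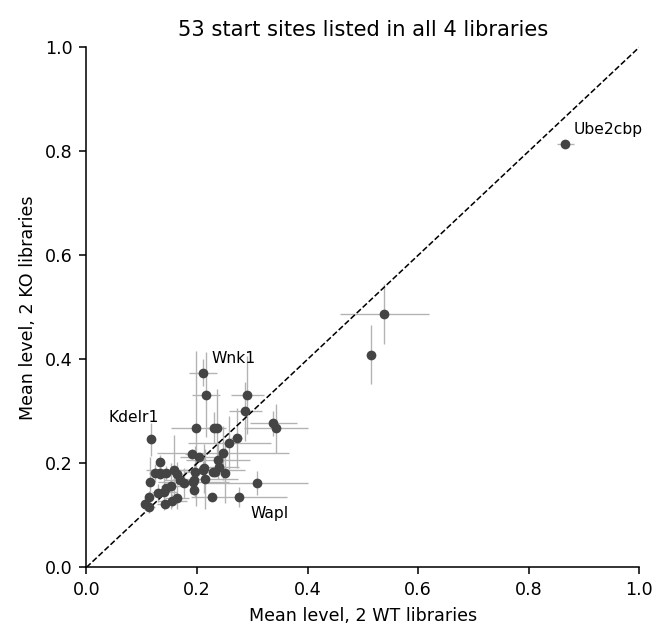
Mean level of the 53 start sites listed in all 4 libraries, WT on the horizontal axis and KO on the vertical axis, as the share of unconverted reads. Bars run from the lower to the higher of the 2 libraries and the dashed line marks equal levels; most points lie below 0.4 on both axes and on either side of the line, and none passed the threshold of the edgeR test.

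The highest start site in all 4 lists lay at the very beginning of its feature. Ube2cbp, a ubiquitin ligase gene also known as Ube3d, was listed at distance 2 (chromosome 9, position 86347001, minus strand), at 0.882 and 0.851 in WT and 0.808 and 0.820 in KO with 47 to 73 reads. Both KO libraries were below both WT libraries, by a small amount: 0.867 ± 0.0221 in WT and 0.814 ± 0.00810 in KO (SD, n = 2 each). No sequence could be matched there. Within 10 bases of the listed end, 2 other positions were in at least 3 lists, both at low levels. Cul3, a scaffold of ubiquitin ligases, was at 0.118 in both WT libraries and 0.167 in KO replicate 1 at distance 9. Mex3c, an RNA-binding ubiquitin ligase, was at 0.103 and 0.101 in WT and 0.2 in KO replicate 2 at distance 5.

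The rest of the 10 highest sites of the 4-library set were lower and had mixed order. Bag6, a chaperone of tail-anchored proteins, was at 0.296 and 0.381 in WT and 0.253 and 0.301 in KO. Lmo4, a LIM-domain cofactor of neural and epithelial development, was at 0.4 and 0.286 in WT and 0.220 and 0.315 in KO. Ptpra at distance 104 was at 0.282 and 0.262 in WT and 0.190 and 0.306 in KO. Zfp512 (0.322 and 0.261; 0.407 and 0.256 in KO) and Rhno1 (0.242 and 0.191; 0.414 and 0.250 in KO) differed more between the KO libraries than between the WT libraries. The genotypes overlapped at Bag6, Lmo4, Ptpra and Zfp512, and both KO libraries were above both WT libraries at Rhno1. Gm19136, Gm52980 and Duxbl1, also among the 10, carry predicted or duplicated gene names, and reads there may be shared with near-identical copies. The genotypes overlapped at Gm19136 and Duxbl1. At Gm52980 both KO libraries (0.465 and 0.353) were below both WT libraries (0.515 each).

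Some genes held many start sites. Hdgf, Shisa2 and Sox2 had 21 positions each and Cmtm8 and Csnk1a1 20 each, against the median of 3. Hdgf, a heparin-binding growth factor, had 8 and 7 start sites in WT and 7 and 8 in KO, at median levels of 0.162 and 0.123 in WT and 0.135 and 0.154 in KO. Shisa2 had 9 and 13 in WT and 5 and 9 in KO, and 9 of its 21 positions were in at least 2 lists. Its highest level was 0.467 and 0.726 in WT and 0.278 and 0.417 in KO, both KO values below both WT values. Sox2, the transcription factor of neural progenitors, had 6 and 3 start sites in WT and 10 and 4 in KO, with median levels of 0.134 and 0.102 in WT and 0.154 and 0.232 in KO. Only 2 of its 21 positions were in at least 2 lists. The highest level of Sox2 was 0.183 and 0.112 in WT and 0.630 and 0.554 in KO, both KO values above both WT values. Cmtm8, a membrane protein of the MARVEL family, had 7 and 7 in WT and 3 and 7 in KO, and Csnk1a1, the casein kinase that primes beta-catenin for destruction, 6 and 6 in WT and 9 and 4 in KO. At Hdgf, Cmtm8 and Csnk1a1 the highest levels of the genotypes overlapped. Each highest level was taken over unequal numbers of sites.

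Eye field genes were examined as markers of the labelled tissue. Of 12 eye field and early neural genes, 7 had a start site, with 64 positions in all and 22 and 18 sites in WT and 18 and 12 in KO. Six3, a homeobox gene of the eye field, had a site 37 bases from its 5' end at 0.547 and 0.436 in WT with 64 and 55 reads; KO replicate 1 listed it at 0.5 with 16 reads, under the minimum. Sfrp1, a secreted Wnt antagonist, had 2 positions listed only in WT, at 0.192 and 0.333 (65 bases in) and at 0.298 and 0.233 (236 bases in), and listed neighbours showed under 50 reads in KO. Zic2, a forebrain zinc finger factor, was at 0.143 in WT replicate 1 and 0.250 in KO replicate 1. Sox2 had 1 position in WT replicate 1 (0.177) and KO replicate 1 (0.154), and 1 in both KO libraries only (0.270 and 0.554). None of these was in all 4 lists, so none was tested. Rax had no start site, and its listed sites over the whole gene numbered 18 and 32 in WT and 0 and 0 in KO. Of the 9 eye field genes with a listed site anywhere in the gene, 5 (Rax, Six3, Lhx2, Sox2 and Hes1) had fewer such sites in both KO libraries than in both WT libraries, and 4 (Pax6, Sox1, Zic2 and Sfrp1) overlapped. Lhx2 had 31 and 43 against 9 and 4, and Pax6 41 and 59 against 42 and 40. Sox1 had 30 and 28 against 37 and 28, and Zic2 30 and 41 against 34 and 58. Of 8 pluripotency and early epiblast genes in the lists, 4 likewise had fewer sites in both KO libraries and 4 overlapped. The latter include Klf4, which had 0 counted sites in every library. Of 16 genes that write, read or remove m6A, 2 were lower in both KO libraries, 3 higher and 11 overlapped. The share over all genes was not counted, so these counts do not show a change particular to any of these gene sets. A site missing from a KO list was converted or too thinly covered. In bulk RNA, thin coverage can come from fewer cells of a type or from less RNA per cell. These cannot be told apart here, and the part of each in the missing KO sites was not tested.

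Markers of other cells were thin at gene starts. Of 10 pluripotency and early epiblast genes, 2 (Pou5f1 and Nanog) had start sites, 2 and 2 in WT and 1 and 1 in KO, while Klf4 was at 0 sites in every library. Of 10 genes of other lineages only Foxd3, a neural crest factor, had any, with 0 and 0 sites in WT and 3 and 1 in KO. The reference gene Actb had 3 positions, none in 2 lists, and Gapdh had none.

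Genes that write and read m6A carried start sites in both genotypes, while Fto and Alkbh5, which remove it, had none. Of 17 such genes, 9 had 40 positions, 10 and 10 sites in WT and 15 and 12 in KO, and 7 positions were in at least 2 lists. These were in the reader genes Ythdf1, Ythdf3 and Ythdc1. In Ythdf1 the 3 recurrent positions were at 0.103 to 0.194 in WT replicate 2 and at 0.102 to 0.154 in a KO library. In Ythdf3 a position 238 bases in was shared by the KO libraries (0.171 and 0.149). In Ythdc1 a position 293 bases in was at 0.593 in WT replicate 1 with 27 reads and 0.133 in KO replicate 2 with 83 reads. Mettl3 itself had 0 start sites in WT and 1 in each KO library, and 15 and 14 listed sites over the gene in WT against 18 and 16 in KO, so the lists do not show the knockout in the target's own RNA. Pcif1, the m6Am writer, had 2 positions, each in 1 library.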

How the data were processed

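The members and gene lists used here were chosen with earlier results of these data known. Start sites were found in the authors' 4 deposited site lists, 1 for every library. Per the file headers, a site carries deposited counts of reads with A or G and of unconverted reads, the deposited fraction of unconverted reads (the level, equal to the ratio of the counts), a p-value and an adjusted p-value whose test is not given in the sources used here, and the deposited gene or chromosome coverage signal and conversion. Listed sites had at least 15 reads, 5 unconverted reads, a level of 0.1 and a p of at most 0.004. Median coverage was 38 to 41 reads per listed site. Between 28 and 53 repeated entries per list were collapsed. Aligner and caller are not given in the sources used here, and reads may include PCR copies, so Wilson intervals cover counting error only.

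Of 881997 positions, 87.0% lay in exactly 1 of 29178 features. The site test was edgeR 4.0.16 (R 4.3.3) on the unconverted and the converted reads of each library, with library terms and genotype by conversion, Benjamini-Hochberg adjusted over 1557 positions, threshold 0.05. As alternatives, a replicate block, Fisher's exact test, a likelihood ratio test and limma 3.58.1 on log2 odds (prior 0.5) were run, as were other coverage, level, window and feature limits and fits without each library. Leaving libraries out of the deeply covered counts was added after seeing the data. The test was first tested on simulated data. Per-library values were compared by exact permutation. Replicate numbers were not used to pair the samples, except in the replicate block. Named sites were the 10 highest sites in all 4 lists, the 10 highest WT-only and 6 highest KO-only sites, the genes with the most positions (5 after a tie), sites within 10 bases in 3 lists and recurrent marker-gene sites. Sites chosen otherwise are said to be so. Sequences are from RefSeq (GRCm38.p6 start windows).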

Additional observations from a re-analysis of the deposited data

How the results depend on the processing

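The number of start sites (KO over WT) was 0.856 to 0.933 under other coverage, level, window, feature and p limits and 0.823 to 1.02 without each library in turn, reversing at 1.02 without WT replicate 2. The median level, the number at 0.5 or more and the share of placed sites kept their direction under every alternative run. Sizes moved: the share difference was 0.115 percentage points, 0.000426 with a window of 100 bases and 0.0571 without WT replicate 2, and the median level difference was -0.0101 and -0.00208 without KO replicate 1. The ratio at 0.5 or more with 100 or more reads was 0.189, and 0.108 to 0.292 without each library in turn. The WT-minus-KO difference in sharing was 1.93 percentage points of the union and 0.682 with a window of 100 bases. WT-shared sites in neither KO list were 71.5%, and 65.3% with 50 or more reads, 78.0% with a window of 100 bases and 79.7% at a level of 0.2 or more. KO-shared sites in neither WT list were 63.2%, and 56.5% with 50 or more reads. Without each library in turn the 2 shares were 81.3% to 85.4% and 75% to 84.1%; here a site had fewer lists to appear in. Start-site calls were 0 except 2 by the likelihood ratio test and 6 by Fisher's exact test. With a replicate block there were 0 start-site calls, and over all positions 51 lower and 4 higher against 41 and 0. Deviations of same-numbered libraries from their genotype's mean correlated at 0.0587 over 1557 positions. With 2 libraries per genotype both pairs give this same value by construction. Coverage limits what can be seen: at 20 reads a level of 0.1 is 2 reads, under the lists' minimum of 5.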
